A study of Mus musculus with 6 samples.

Results

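The macrophage, leukocyte and chemokine genes described here are 41 mouse genes, taken by name from the exon-bin count table of a heart study and grouped by role. They comprise 9 macrophage surface and lysosome genes, 3 complement C1q chains, 5 genes of Cd14, Fc receptors and their adaptors, and 3 pan-leukocyte genes. The others are 3 monocyte genes, 5 MHC class II genes, 9 chemokines and cytokines, and 4 genes of NF-kB and its adhesion targets. All 41 had counts among the 48005 gene identifiers of the table, and 38 were among the 13066 identifiers that passed the count filter. Cxcl10, Il6 and Tnf were under the filter and are given as counts only.

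RNA from whole hearts of C57BL/6 mice was sequenced in 2 groups of 3 hearts. In the knock-in group, the PPXY motif of Txnip was changed to AAXA in a conditional allele. Txnip, an alpha-arrestin, inhibits thioredoxin and restrains the uptake of glucose, and motifs of the form PPXY are known to bind the WW domains of ubiquitin ligases such as Itch. The control hearts have a wild-type genotype and carry the label Txnip flox. All 6 hearts are labelled with MerCreMer, a Cre recombinase that 4-hydroxytamoxifen activates, and with that drug, so both Cre and drug are shared by the groups. The promoter that drives MerCreMer was not given in the sources used here, nor were the dose and timing of the drug or the age and sex of the animals. The same control hearts also serve in another series. No batch or date is labelled, so any batch is one that cannot be told apart from genotype.

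Macrophages are the most abundant leukocytes of the resting heart, where they clear debris and dying cells and sense injury. Resident cells carry scavenger and lectin receptors such as Mrc1 and Cd163, depend on the growth factor receptor Csf1r, and secrete lysozyme and C1q. A subset also presents peptides to CD4+ T cells on MHC class II, and chemokines steer the entry of monocytes and lymphocytes, in part through NF-kB.

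Depth was similar in all hearts, with totals of 30329004 to 30625093 counts for wild-type and 31989883 to 34016586 counts for knock-in libraries. Levels are given as CPM, that is, as counts relative to the scaled total of the library, in the order of replicates 1, 2 and 3. Txnip itself stood at 887, 939 and 886 CPM in wild-type and at 363, 751 and 670 CPM in knock-in hearts, a log2 difference of -0.60 ± 0.20 (SE, edgeR quasi-likelihood adjusted p = 0.0698, n = 3 per group). Counts per bin do not read the altered bases, so they do not check the genotype labels. Of 9 cardiomyocyte markers, Tnni3 was left out because its identifier is joined with an overlapping gene. The other 8 summed to 98636 to 104306 CPM in wild-type and 110917 to 118128 CPM in knock-in hearts. Such high levels are what the tissue label requires, and every knock-in sum lay above every wild-type sum. Read coverage along transcripts separated the groups: over 1796 long genes, 3′ counts relative to 5′ counts had a median log2 ratio of 0.70, 0.49 and 0.30 in wild-type and -0.08, -0.24 and -0.15 in knock-in hearts. Because of that separation, coverage and genotype cannot be told apart in these libraries, and fits that bear on it are given for the genes the results turn on.

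Of the 38 tested genes, 7 fell in the knock-in hearts (18.4%): Lyz2, C1qc, Cx3cr1, H2-Ab1, H2-Eb1, Cd74 and Cxcl9 (edgeR quasi-likelihood test, Benjamini-Hochberg adjusted over all 13066 genes, threshold 0.05). Over all tested genes, 4.09% were called lower and 6.74% higher. None of the 38 was called higher by edgeR, DESeq2 or limma-voom, and 1 of them, Vcam1, was higher at an unadjusted p under 0.05 with edgeR, against 11 lower. The remaining 31 were not called, and 27 of the 38 had a log2 difference below 0. An unadjusted p under 0.05 was common in this table, found with edgeR for 3622 of the 13066 tested genes. Counts of that kind, here and for the lists below, are to be read against this share. The median log2 difference, knock-in minus wild-type, was -0.23 over the 38 and -0.0043 over all tested genes. With upper-quartile scaling the calls over all genes were 734 lower and 594 higher instead of 534 and 881, and 8 of the 38 were called lower. By level alone, all knock-in hearts lay below all wild-type hearts for 12 of the 38 and above them for 1, while 14.0% of all tested genes lay below and 16.7% above. In whole-heart RNA, fewer cells of a type and less RNA per cell cannot be told apart.

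**Figure D1:**
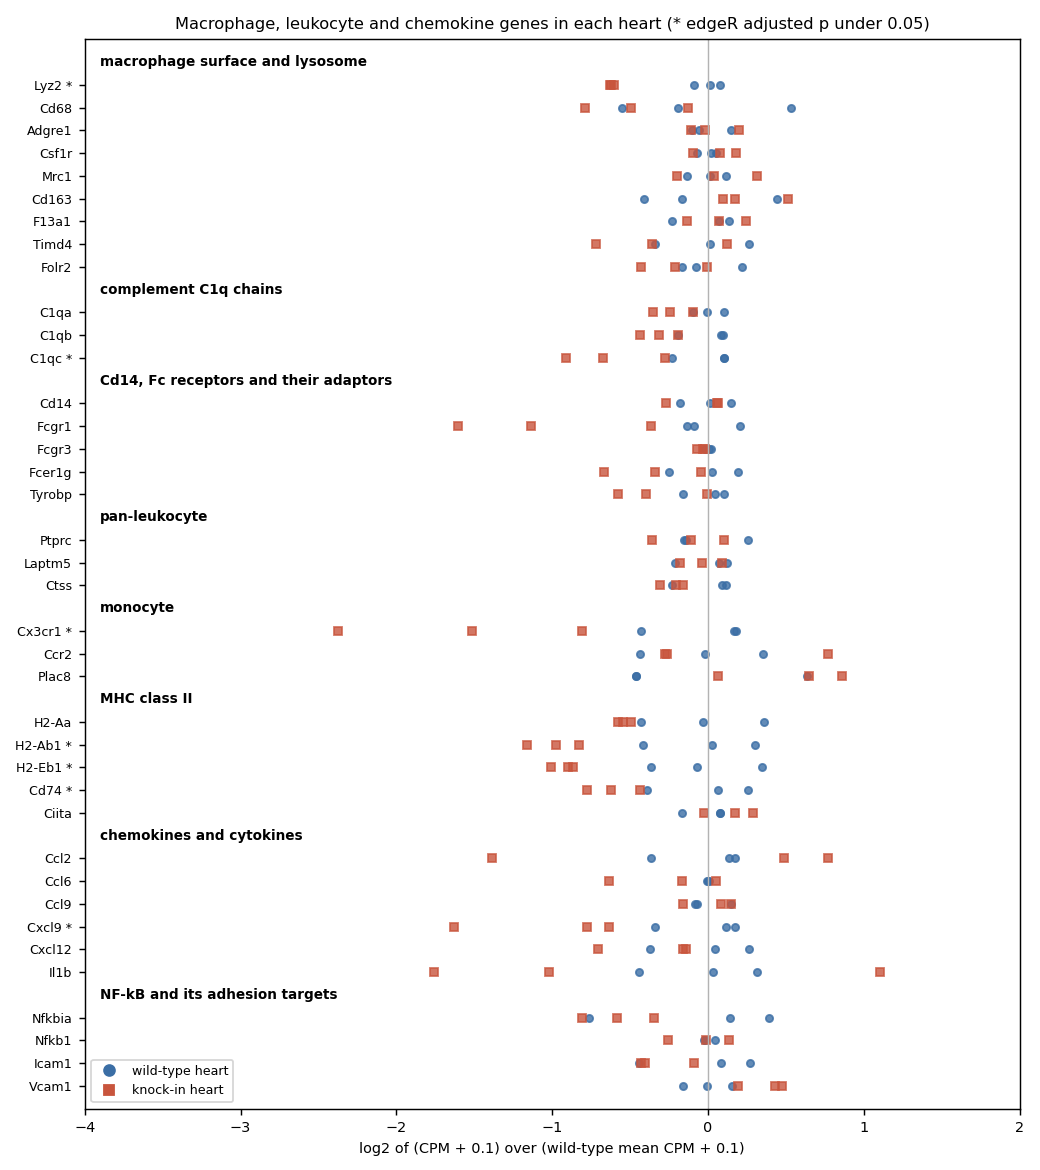
Level of each of the 38 tested genes in each heart, as log2 of CPM plus 0.1 over the wild-type mean plus 0.1 (x axis), by class, with wild-type hearts as circles and knock-in hearts as squares. The squares of Lyz2, Cx3cr1, H2-Ab1, H2-Eb1 and Cxcl9 lie apart from the circles, while those of Adgre1, Csf1r, Mrc1 and F13a1 lie among them.

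MHC class II genes held 3 of the 7 calls. H2-Ab1 and H2-Eb1, the beta chains of the class II molecules I-A and I-E, fell 1.98-fold and 1.90-fold, and Cd74, the invariant chain that guards the peptide groove, fell 1.52-fold. I-E does not reach the surface in C57BL/6 mice, which lack its alpha chain, so H2-Eb1 is read here as a transcript of the locus. The promoters of class II genes share an X box, bound by RFX, and a Y box, bound by NF-Y, on which the coactivator Ciita acts. The promoters of H2-Aa and H2-Eb1 are shown because they carry the cores of both boxes in that order. They are the RefSeq sequences on GRCm38.p6 from 250 bases before to 50 bases after the start of each gene, written 5′ to 3′ on the strand of the gene, with GCAAC of the X box core and ATTGG of the Y box, which reads CCAAT on the other strand, in capitals. H2-Aa lies on the minus strand at chr17:34287774-34288073 and H2-Eb1 on the plus strand at chr17:34305617-34305916.
H2-Aa: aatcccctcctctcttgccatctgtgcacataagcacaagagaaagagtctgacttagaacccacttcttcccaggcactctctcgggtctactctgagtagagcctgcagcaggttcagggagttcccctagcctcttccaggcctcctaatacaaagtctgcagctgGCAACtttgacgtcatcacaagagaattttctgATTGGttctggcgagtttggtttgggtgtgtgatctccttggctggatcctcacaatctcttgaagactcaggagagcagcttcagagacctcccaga
H2-Eb1: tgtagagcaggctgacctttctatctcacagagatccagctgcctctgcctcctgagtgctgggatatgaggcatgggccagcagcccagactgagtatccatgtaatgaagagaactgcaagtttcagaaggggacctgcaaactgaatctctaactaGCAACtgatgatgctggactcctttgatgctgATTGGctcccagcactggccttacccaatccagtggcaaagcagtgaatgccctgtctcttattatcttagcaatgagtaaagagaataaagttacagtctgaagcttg
The cores lie 28 bases apart in H2-Aa and 27 bases apart in H2-Eb1. Over 32851 promoters of the same length, GCAAC was found on either strand in 35.2% and ATTGG in 37.4%. The ordered pair, GCAAC first and ATTGG 10 to 40 bases further on the same strand, was found in 1.43% of them. Of the 30 genes of the 41 that matched a promoter entry, Cd68, H2-Aa and H2-Eb1 held the pair. A match describes the letters only, and H2-Ab1 had no entry.

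H2-Ab1 (chr17:34263209-34269418, plus strand, GRCm38) stood at 29.5, 35.7 and 21.6 CPM in wild-type and at 16.2, 12.9 and 14.6 CPM in knock-in hearts. H2-Eb1 (chr17:34305877-34316199, plus strand) stood at 31.1, 41.5 and 25.3 CPM against 17.8, 17.5 and 16.1 CPM. In both genes the 3 knock-in hearts lay close together and below every wild-type heart, of which replicate 2 was the highest and replicate 3 the lowest. The log2 differences were -0.99 ± 0.18 for H2-Ab1 (SE, edgeR adjusted p = 0.00799) and -0.93 ± 0.17 for H2-Eb1 (edgeR adjusted p = 0.00807). Cd74 stood at 120.1, 138 and 87.6 CPM in wild-type and at 74.6, 85.2 and 67.3 CPM in knock-in hearts. The groups did not overlap, but the highest knock-in and the lowest wild-type heart nearly met, and the log2 difference was -0.61 ± 0.16 (edgeR adjusted p = 0.0298). The identifier of Cd74 joins a second gene that overlaps it on the same strand, so its counts may include reads of both.

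H2-Aa, the alpha chain that pairs with H2-Ab1, had 39.6, 51.8 and 29.97 CPM in wild-type and 27.0, 28.7 and 27.7 CPM in knock-in hearts. The order of the wild-type hearts was the same as in the beta chains and the groups did not overlap, yet the log2 difference of -0.54 ± 0.17 did not pass (edgeR adjusted p = 0.0596). It passed with DESeq2 (adjusted p = 0.0225), with upper-quartile scaling, without the count filter, and without wild-type replicate 3 (edgeR adjusted p = 0.00456). H2-Aa did not pass with 3′ end bins (-0.43, edgeR adjusted p = 0.200), the highest bin (-0.41, 0.193) or length and GC offsets (-0.41, 0.0833). Leaving out any other heart gave an edgeR adjusted p from 0.0710 (knock-in replicate 1) to 0.261 (wild-type replicate 2). Ciita, the master coactivator of these genes, had 16, 16 and 13 counts in wild-type and 17, 20 and 16 counts in knock-in hearts, and its log2 difference was 0.18 ± 0.41 (edgeR adjusted p = 0.822). At so few counts, even a difference well beyond that SE could have been missed. The summed level of the class ran from 165 to 267 CPM in wild-type and from 126 to 145 CPM in knock-in hearts. Without knock-in replicate 2, the adjusted p was 0.0598 for H2-Ab1 and 0.0531 for H2-Eb1, and Cd74 lost its call without knock-in replicate 2 (0.0817) or 3 (0.101) and without wild-type replicate 1 (0.107) or 2 (0.14), all with edgeR.

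Of 11 other genes of the class II pathway, 9 were tested, 1 fell and none rose with edgeR. Of the 9, 4 had an unadjusted p under 0.05, against 3622 of 13066 over all tested genes. The gene that fell was Ctsl, a lysosomal protease that trims the invariant chain in thymic epithelium, at -0.46 ± 0.11 on the log2 scale (edgeR adjusted p = 0.0251). Ctsl stayed lower with length and GC offsets (-0.36, edgeR adjusted p = 0.0403) but did not pass with 3′ end bins (0.0642) or the highest bin (0.109). H2-DMa, a subunit of the peptide exchanger of the pathway, was at -0.72 ± 0.26 (edgeR adjusted p = 0.0947). Rfx5, a subunit of RFX, was at 0.78 ± 0.28 (edgeR adjusted p = 0.0886). H2-Oa and H2-Ob, the inhibitors of the exchanger, were under the count filter. The median log2 difference of the 9 was -0.42.

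Among the macrophage surface and lysosome genes, Lyz2 fell and the other 8 were not called. Lyz2 (chr10:117277334-117282274, minus strand) encodes the lysozyme of macrophages and other myeloid cells, which cuts bacterial cell walls. It stood at 134, 140.5 and 125 CPM in wild-type and at 87.8, 86.2 and 86.5 CPM in knock-in hearts. The knock-in hearts were nearly equal and lay far below the lowest wild-type heart, with a log2 difference of -0.62 ± 0.10 (1.54-fold, edgeR adjusted p = 0.00611). Per kilobase of exon it was the highest of the 41 genes, at 105 CPM against 68.6 CPM in the knock-in group. Lyz1, a close copy that can share reads with Lyz2, was also lower, at 24, 30 and 14 against 5, 4 and 11 counts (log2 difference -1.81 ± 0.52, edgeR adjusted p = 0.0447).

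Csf1r, the receptor for the growth factor on which macrophages depend, had 29.4, 29.9 and 27.5 CPM in wild-type and 27.0, 30.5 and 32.8 CPM in knock-in hearts, a log2 difference of 0.06 ± 0.12 (edgeR adjusted p = 0.806). Mrc1, the mannose receptor, had 20.1, 21.5 and 18.1 CPM against 17.3, 20.4 and 24.7 CPM, a log2 difference of 0.07 ± 0.15 (edgeR adjusted p = 0.824). In both genes the knock-in hearts spanned the wild-type hearts when all bins were counted. With the highest bin of each gene alone, Csf1r was at -0.47 ± 0.15 (edgeR adjusted p = 0.0911) and Mrc1 at -0.88 ± 0.17 (0.0079), so neither sign is settled by the whole-gene values. Adgre1, the F4/80 antigen, had 9.54, 10.97 and 9.23 CPM against 9.17, 9.80 and 11.4 CPM, and F13a1, the factor XIII A chain of resident macrophages, was at 0.07 ± 0.14 (edgeR adjusted p = 0.805). Cd163, the scavenger receptor for haptoglobin and hemoglobin, was at 16.0, 10.5 and 8.81 CPM in wild-type and 12.6, 13.3 and 16.8 CPM in knock-in hearts (log2 difference 0.27 ± 0.21, edgeR adjusted p = 0.432). Cd68, a lysosomal membrane glycoprotein, was at 8.28, 4.99 and 3.86 CPM against 4.01, 3.26 and 5.20 CPM, with wild-type replicate 1 the single high heart (-0.46 ± 0.28, edgeR adjusted p = 0.314). Folr2 and Timd4, both markers of long-lived resident macrophages, had log2 differences of -0.21 and -0.30 with overlapping groups. The class sum was 229 to 263 CPM in wild-type and 194 to 223 CPM in knock-in hearts, and Lyz2 made up more of it than any other gene.

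The 3 chains of C1q, the recognition molecule of the classical complement pathway, were all lower in every knock-in heart, though narrowly. C1qc (chr4:136889804-136893065, minus strand) had 30.3, 30.3 and 24.1 CPM in wild-type and 23.3, 17.6 and 15.0 CPM in knock-in hearts. C1qa had 28.1, 26.1 and 24.6 CPM against 24.5, 22.1 and 20.6 CPM, and the highest knock-in heart nearly equalled the lowest wild-type heart. C1qc passed, at -0.60 ± 0.17 on the log2 scale (1.52-fold, edgeR adjusted p = 0.0425), whereas C1qa at -0.23 ± 0.13 (0.279) and C1qb at -0.31 ± 0.14 (0.156) did not. C1qc lost its call without knock-in replicate 2 (edgeR adjusted p = 0.163) or 3 (0.143), without wild-type replicate 1 (0.15) or 2 (0.158), with 3′ end bins (0.0787), and with offsets for length and GC content (0.0811), where C1qa was at 0.19 and C1qb at 0.04.

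Among Cd14, the Fc receptors and their adaptors, none was called by edgeR, and 1 had an unadjusted p under 0.05. That gene was Fcgr1, the high-affinity receptor for IgG, with 2.05, 1.98 and 2.54 CPM in wild-type and 0.653, 0.943 and 1.68 CPM in knock-in hearts. The groups did not overlap, and the log2 difference was -0.998 ± 0.34 (edgeR adjusted p = 0.08). Fcgr1 was called lower in 4 of 17 alternatives: with DESeq2, without the count filter, with the highest bin of each gene, and without knock-in replicate 3 (edgeR adjusted p = 0.0413). It did not pass with length and GC offsets (edgeR adjusted p = 0.103), 3′ end bins (0.0828) or limma-voom (limma-voom adjusted p = 0.0593). Leaving out any other heart gave an edgeR adjusted p from 0.13 (wild-type replicate 3) to 0.237 (knock-in replicate 2). Fcgr3, the low-affinity receptor, was nearly equal in all hearts, at 13.3, 13.7 and 13.5 CPM against 12.8, 13.2 and 13.3 CPM (-0.04 ± 0.14, edgeR adjusted p = 0.874). Tyrobp and Fcer1g, the adaptors that carry the signal of such receptors into the cell, were at -0.31 ± 0.18 (edgeR adjusted p = 0.272) and -0.33 ± 0.20 (0.317). Cd14, the co-receptor for lipopolysaccharide, was at -0.04.

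The pan-leukocyte genes were not called, and none had an unadjusted p under 0.05 with edgeR. Ptprc, the CD45 phosphatase of all leukocytes, had 2.79, 3.71 and 2.77 CPM in wild-type and 2.38, 3.32 and 2.85 CPM in knock-in hearts. The ranges overlapped over most of their length, with a log2 difference of -0.12 ± 0.23 (edgeR adjusted p = 0.792). Ctss, the cathepsin that completes the cleavage of the invariant chain in macrophages and B cells, was at -0.23 ± 0.15 (edgeR adjusted p = 0.346). Laptm5, a lysosomal membrane protein of leukocytes, was at -0.04 ± 0.15 (0.895).

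Of the monocyte genes, Cx3cr1 had the largest difference of all 38. Cx3cr1, the receptor for the chemokine Cx3cl1 on monocytes and some resident macrophages, lies at chr9:119901616-120069879 on the minus strand. It had 87, 56 and 86 counts in wild-type and 12, 26 and 46 counts in knock-in hearts, or 2.79, 1.79 and 2.77 against 0.392, 0.791 and 1.35 CPM. All knock-in hearts were below all wild-type hearts but differed among themselves, and the log2 difference was -1.52 ± 0.39 (2.87-fold, edgeR adjusted p = 0.029). The call was lost without knock-in replicate 2 (edgeR adjusted p = 0.119), wild-type replicate 1 (0.11) or wild-type replicate 2 (0.0622). Ccr2, the receptor that brings monocytes out of the marrow, was not called, at 0.674, 0.480 and 0.900 CPM against 0.555, 0.548 and 1.23 CPM (0.19 ± 0.44, edgeR adjusted p = 0.82). Plac8 had only 3 to 12 counts per heart (0.79 ± 0.64, edgeR adjusted p = 0.452). Ly6c2, a further monocyte marker, was under the count filter with 27 counts in all.

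**Figure D2:**
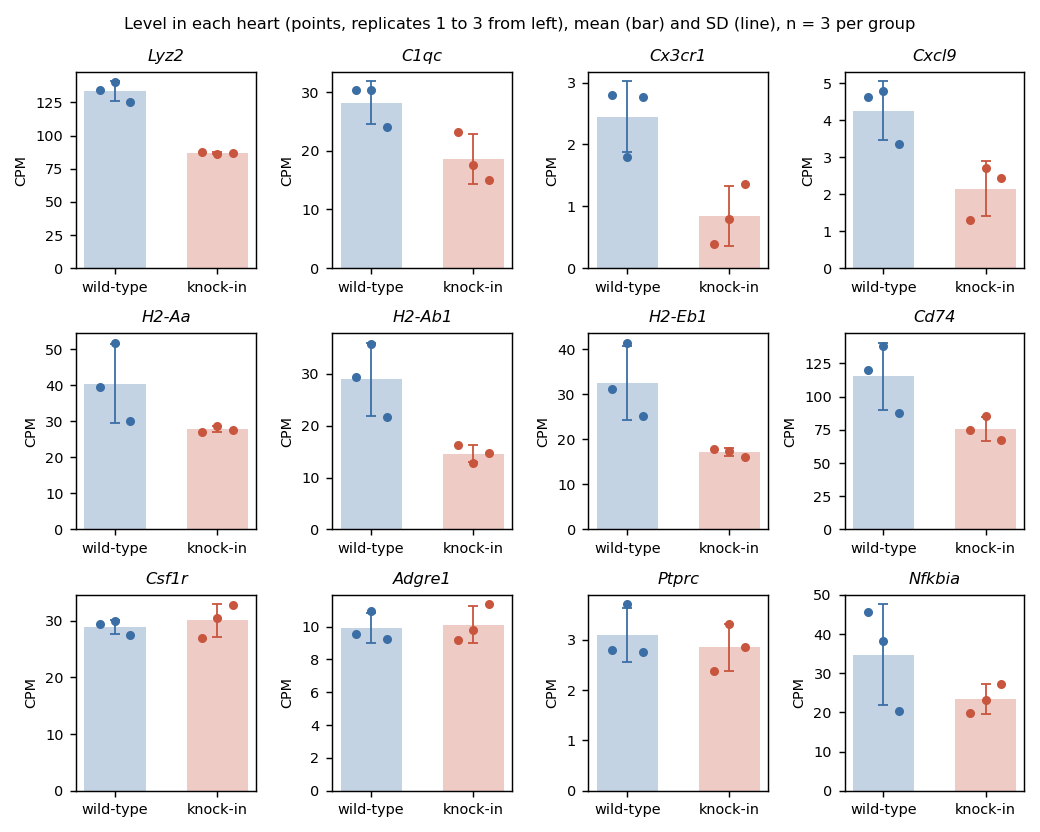
Level in CPM of 12 genes in each heart (points, replicates 1 to 3 from left), with the group mean as bar and the SD as line (n = 3 per group). Lyz2, H2-Ab1, H2-Eb1 and Cx3cr1 are lower in all knock-in hearts, whereas the points of Csf1r, Adgre1 and Ptprc overlap.

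Among the chemokines and cytokines, Cxcl9 fell and the other 5 tested genes were not called. Cxcl9 (chr5:92321347-92328079, minus strand) is a chemokine induced by interferon gamma that attracts T cells through Cxcr3. It had 4.62, 4.799 and 3.34 CPM in wild-type and 1.31, 2.71 and 2.44 CPM in knock-in hearts. No knock-in heart reached the lowest wild-type heart, and the log2 difference was -0.98 ± 0.28 (1.97-fold, edgeR adjusted p = 0.0438). The call rested on all hearts but wild-type replicate 3, since leaving out any other heart gave an edgeR adjusted p from 0.0603 (knock-in replicate 1), 0.083 (3) and 0.092 (2) to 0.143 (wild-type replicate 1) and 0.154 (2). Its neighbour Cxcl10, induced by the same interferon, was under the filter, with 6, 21 and 6 counts against 1, 3 and 5 counts.

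Cxcl12, which retains leukocytes and progenitors through Cxcr4, had 77.7, 49.97 and 66.7 CPM in wild-type and 39.6, 58.7 and 57.9 CPM in knock-in hearts. The groups overlapped, and the log2 difference of -0.32 ± 0.18 did not pass (edgeR adjusted p = 0.274). Ccl2, the main ligand of Ccr2, had 1.22, 0.832 and 1.25 CPM against 0.359, 1.95 and 1.59 CPM, so knock-in hearts held both the lowest and the highest values (0.24 ± 0.48, edgeR adjusted p = 0.786). Ccl6 and Ccl9, which macrophages make in mice, were at -0.23 ± 0.17 (edgeR adjusted p = 0.409) and 0.03 ± 0.16 (0.922). Il1b had 14, 11 and 7 counts in wild-type and 26, 1 and 4 counts in knock-in hearts, with no difference detectable at this depth (edgeR adjusted p = 0.965). Il6 had 2 counts over all hearts and Tnf 10, at or near the limit of detection in both groups.

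Of 31 other chemokines and chemokine receptors, 17 were tested, and 1 fell, Cx3cl1, the transmembrane ligand of Cx3cr1. It had 5.68, 4.83 and 7.94 CPM in wild-type and 3.43, 4.17 and 3.18 CPM in knock-in hearts (-0.78 ± 0.23, edgeR adjusted p = 0.0458). With length and GC offsets Cx3cl1 was at -0.67 (edgeR adjusted p = 0.0586) and with its highest bin at -0.82 (0.0425). Cxcl1, which attracts neutrophils, was at -1.64 ± 0.52 (edgeR adjusted p = 0.0604), and Ccl7, which attracts monocytes, at -1.10 ± 0.37 (0.0724). Of the 17, 16 had a log2 difference below 0, the median was -0.47, and none was called higher. The list included 13 genes under the filter, among them Ccl5 and Cxcr3, with Ccl21a at 0 in every heart.

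None of the 4 genes of NF-kB and its adhesion targets was called by edgeR, and 2 had an unadjusted p under 0.05. Nfkbia, the inhibitor that NF-kB induces, had 45.6, 38.3 and 20.4 CPM in wild-type and 19.8, 23.2 and 27.3 CPM in knock-in hearts. Wild-type replicate 3 lay among the knock-in hearts, and the log2 difference was -0.57 ± 0.23 (edgeR adjusted p = 0.136), or -0.84 without that heart (0.00321). Nfkbia was called in that 1 of 17 alternatives only. Leaving out any other heart gave an edgeR adjusted p from 0.183 (knock-in replicate 3) to 0.452 (wild-type replicate 1, at -0.36). Vcam1, the endothelial ligand of the integrin VLA-4, was the single member higher in every knock-in heart, at 13.5, 10.8 and 12.1 CPM against 13.9, 16.9 and 16.4 CPM (0.37 ± 0.15, edgeR adjusted p = 0.132). Nfkb1, a subunit of NF-kB, was at -0.03 ± 0.13 (edgeR adjusted p = 0.889), and Icam1, the ligand of leukocyte beta2 integrins, at -0.30 ± 0.21 (0.374).

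Of 29 other genes of the NF-kB, TNF, IL-1 and IL-6 pathways, 28 were tested, 3 rose (10.7%, against 6.74% of all tested genes) and 1 fell. Tlr4, the receptor for lipopolysaccharide, rose from 5.01, 7.01 and 8.01 CPM to 11.4, 11.99 and 18.2 CPM (1.05 ± 0.22, edgeR adjusted p = 0.0151). Il6st, the gp130 chain of the IL-6 receptor family, was at 0.52 ± 0.13 (0.0266) and Traf6, a ubiquitin ligase of the Toll and IL-1 pathways, at 0.62 ± 0.19 (0.0496). Nfkbiz, an inducible member of the inhibitor family, fell, at -1.42 ± 0.39 (edgeR adjusted p = 0.0359). Their median log2 difference was -0.03. The 3 that rose have long exonic sequences, of 5556 bases in Tlr4, 7883 in Traf6 and 11099 in Il6st, and long genes had more higher calls over the whole table. Near the 3′ end Tlr4 was at -0.78 ± 0.46 (edgeR adjusted p = 0.391), though it was at 0.93 with length and GC offsets (0.0045). Il6st was at 0.32 with those offsets (edgeR adjusted p = 0.0373) and at 0.052 with its highest bin (0.854), and Traf6 did not pass with the offsets (0.0662). Nfkbiz did not pass with 3′ end bins (0.256) or the highest bin (0.142). Of 31 other macrophage genes, 30 were tested and 2 fell, Apoe, a lipid carrier of macrophages, at -0.45 ± 0.12 (edgeR adjusted p = 0.03) and Csf1, the ligand of Csf1r, at -0.55 ± 0.16 (0.0471), while Maf, a transcription factor of resident macrophages, was at -0.69 ± 0.22 (0.0611). Csf1 passed in the fits with offsets, 3′ end bins and the highest bin, whereas Apoe was at -0.13 with the offsets (edgeR adjusted p = 0.441). None of the 30 rose, 12 had an unadjusted p under 0.05 (over all tested genes, 3622 of 13066), and the median was -0.28. Over the 102 genes of these 4 further lists, 84 were tested, 3 rose (3.57%), 5 fell (5.95%) and 76 were not called. Over all tested genes 6.74% were higher and 4.09% lower, the reverse order. With 8 calls in these lists, that difference was not tested. With each heart's coverage ratio as covariate, edgeR called none of those 8 genes (adjusted p of 0.955 and above). That ratio separates the groups, which leaves the fit little power.

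Markers of other leukocytes were scarce in both groups. Of 12 T and NK cell markers 1 was tested, Cd4, which was not called (log2 difference 1.12, unadjusted p under 0.05 with edgeR). The list sum was 0.963 to 1.76 CPM in wild-type and 1.21 to 2.34 CPM in knock-in hearts, with Ncr1 at 0 and Klrb1c left out. Of 7 B cell markers 1 was tested, Ighm, which was not called (-0.81 ± 0.27, edgeR adjusted p = 0.0674), and the list sum was 4.37 to 5.82 against 2.06 to 3.79 CPM. Both B cells and dendritic cells carry class II. The dendritic list of 8 markers, 2 of them tested and Clec9a left out, summed to 5.18 to 6.82 CPM in wild-type and 3.66 to 5.50 CPM in knock-in hearts. Neutrophil markers, 4 of 9 tested with Mpo at 0, ranged from 4.08 to 7.93 against 1.86 to 11.4 CPM, and mast cell markers, 5 of 6 tested with Ms4a2 at 0, from 4.57 to 6.13 against 2.58 to 5.32 CPM. Platelet markers, carried by cells of the blood, were lower: 3 of 4 tested fell, and the sum was 17.4 to 22.0 CPM against 8.56 to 11.3 CPM. The part of these cells in the differences of the class II and monocyte genes was not tested. Endothelial markers summed to 2787 to 3169 CPM against 2956 to 3634 CPM, with 1 of 12 higher and 2 lower, and of 9 fibroblast markers 1 fell. Despite that sum, 10 of the 12 endothelial markers had a log2 difference below 0 and 2 above, with a median of -0.32. Of these 12, 6 had an unadjusted p under 0.05 with edgeR, against 3622 of 13066 over all tested genes. The median of the 9 fibroblast markers was 0.11.

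Short genes had more lower calls throughout the table, and most of the 41 genes are short. When all tested genes were cut into 5 classes of exonic length, the class of 57 to 2223 bases had 7.92% lower and 1.11% higher calls and a median log2 difference of -0.19. It held 21 of the 38 members, of which 5 were lower, with a median of -0.31. The class of the longest genes had 1.91% lower and 14.8% higher calls, a median of 0.20, and 4 members, Cxcl12, Nfkb1, Ptprc and Vcam1, none of them called by edgeR. Cx3cr1 and Cxcl9 were the called members outside the shortest class. With per-library offsets for length and GC content, 5 members were lower and none higher, against 4.55% lower and 9.47% higher over all genes. Those were Lyz2 (-0.42 ± 0.09, edgeR adjusted p = 0.00859), Cx3cr1 (-1.54 ± 0.37, 0.0156), H2-Ab1 (-0.68 ± 0.14, 0.00844), H2-Eb1 (-0.68 ± 0.14, 0.00661) and Cxcl9 (-0.98 ± 0.27, 0.027). Cd74 was at -0.30 ± 0.12 (edgeR adjusted p = 0.131) and C1qc at -0.33 ± 0.12 (0.0811) in that fit, and over the members the median log2 difference was -0.05.

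**Figure D3:**
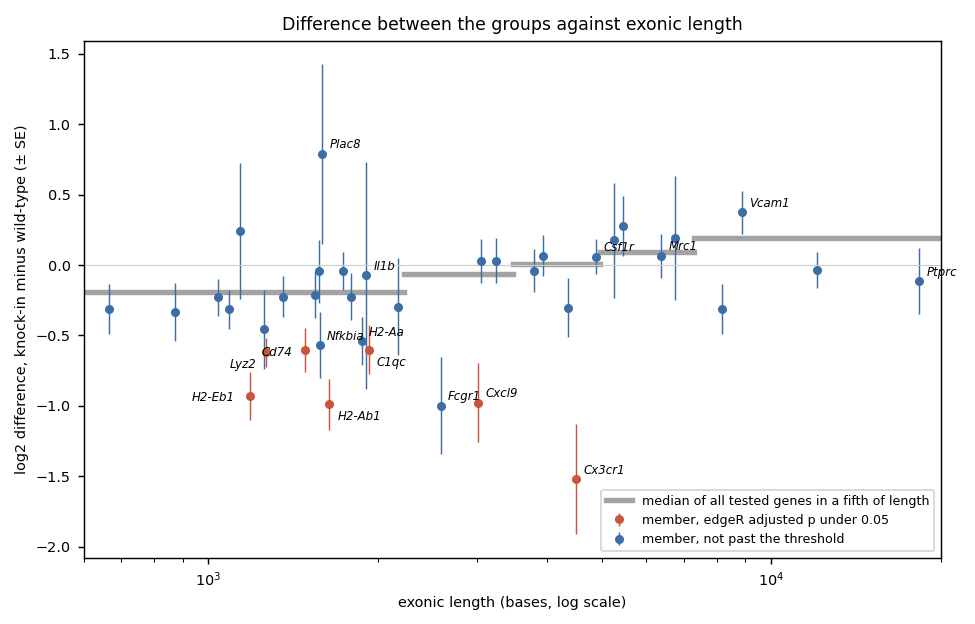
Log2 difference (knock-in minus wild-type, with SE) of each tested gene of the 41 against its exonic length on a log axis, and the median of all tested genes in each of 5 length classes (grey bars). The grey medians rise from -0.19 to 0.20 with length, and Cx3cr1, Cxcl9, Fcgr1, H2-Ab1 and H2-Eb1 lie well below them.

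The difference also varied along single genes. For 26 members with at least 60 counts at both ends, the exonic length was cut into 3 equal stretches, and the 3′ stretch was lower relative to the 5′ stretch in 23 (88.5%), compared with 81.7% of 9117 genes of the whole table. Mrc1 had 3.02, 4.42 and 2.48 CPM in the 5′ stretch of wild-type and 5.45, 7.70 and 9.20 CPM in that of knock-in hearts. In its 3′ stretch it had 4.21, 4.06 and 3.95 CPM against 2.12, 2.07 and 1.82 CPM. The groups did not overlap at either end and stood in opposite order, with log2 differences of 1.15 and -0.99 that leave 0.07 over the whole gene. Csf1r was at 0.52 and -0.60 at the 5′ and 3′ ends, Cd163 at 0.74 and -0.55, and F13a1 at 0.65 and -0.47, with whole-gene values of 0.06, 0.27 and 0.07. The difference in these macrophage genes therefore depended on which exons were counted.

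**Figure D4:**
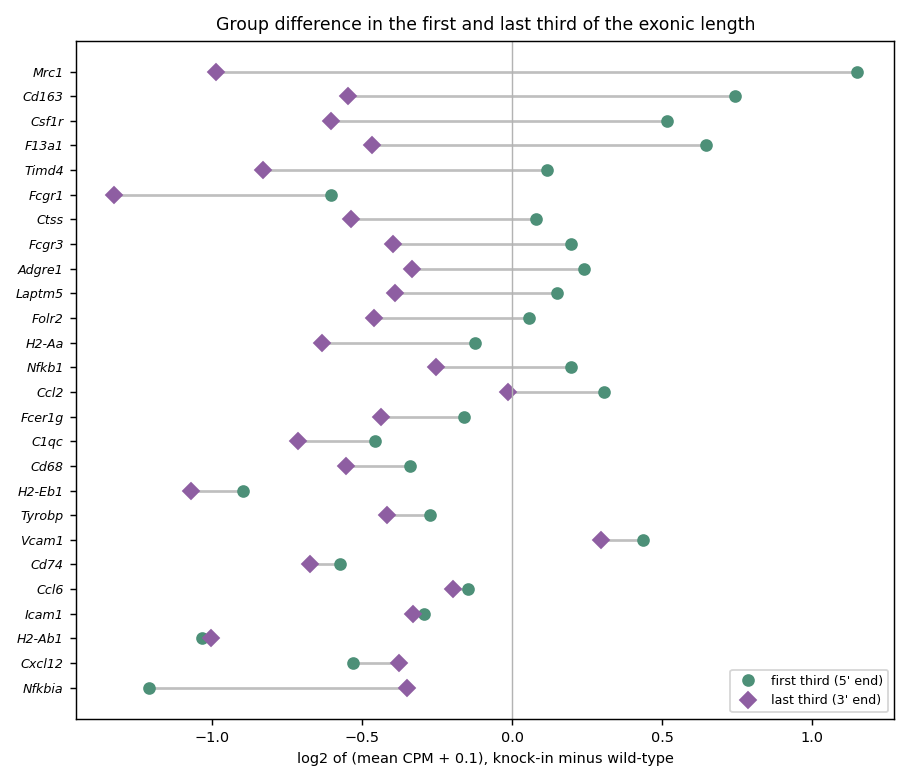
Log2 difference (knock-in minus wild-type mean CPM plus 0.1) in the 5′ stretch (circles) and the 3′ stretch (diamonds) of 26 genes. Mrc1, Cd163, Csf1r and F13a1 cross from above 0 to below 0, while H2-Ab1, H2-Eb1, Cd74 and C1qc lie below 0 at both ends.

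The called class II genes were lower along their whole length. H2-Ab1 was at -1.04 in the 5′ stretch and -1.004 in the 3′ stretch, H2-Eb1 at -0.90 and -1.07, and Cd74 at -0.58 and -0.67. H2-Aa, which was not called, was at -0.13 in the 5′ stretch, where the groups overlapped, and at -0.63 in the 3′ stretch. Among exon bins with at least 30 counts, all 7 of H2-Ab1, all 6 of H2-Eb1 and all 12 of Cd74 were below 0, the last within -0.74 to -0.51. All 5 such bins of C1qc, 4 of Cxcl9, 4 of Fcgr1, 6 of Nfkbia and 2 of Cx3cr1 were below 0 as well. The called genes among these were picked by the sum of the same bins, and bins of a gene share reads. Their bins below 0 are therefore no separate test of the calls. The same share in uncalled genes of like length was not tested. Counted by its highest bin alone, Cd74 was at -0.56 and missed the threshold (edgeR adjusted p = 0.0576). Its 3′ end bins gave -0.37, also not called (edgeR adjusted p = 0.170). Nfkbia ran against most genes, at -1.21 in the 5′ stretch and -0.35 in the 3′ stretch, and its difference was -0.07 ± 0.21 with 3′ end bins and -0.18 ± 0.22 with the highest bin (edgeR adjusted p = 0.902 and 0.706). In Mrc1, by contrast, 21 of 31 bins were above 0 and 10 below, from 1.23 down to -0.98. Its 1006-base bin at the 3′ end (chr2:14330922-14331927) had 129, 126 and 123 counts in wild-type and 64, 68 and 62 counts in knock-in hearts.

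**Figure D5:**
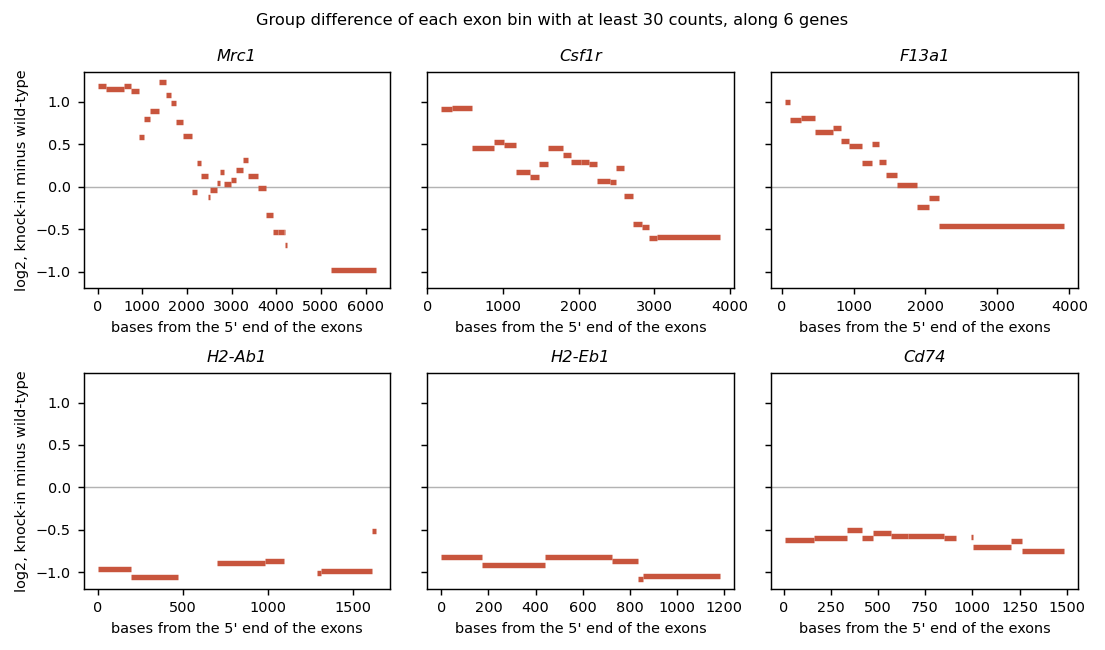
Log2 difference (y axis) of each exon bin with at least 30 counts against its position in bases from the 5′ end of the exons (x axis), for 6 genes, each bar as long as its bin. Mrc1, Csf1r and F13a1 run from above 0 at the 5′ end to below 0 at the 3′ end, and all bins of H2-Ab1, H2-Eb1 and Cd74 lie below 0.

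Counting each gene only by its bins within 1000 exonic bases of the 3′ end left 8287 genes tested, with 1.77% lower and 1.57% higher, and 27 members. Of these 4 fell and none was called higher: Lyz2 (-0.48 ± 0.10, edgeR adjusted p = 0.0167), H2-Ab1 (-0.71 ± 0.16, 0.028), H2-Eb1 (-0.70 ± 0.15, 0.024) and Mrc1 (-0.79 ± 0.18, 0.028). Cx3cr1 and Cxcl9 were not among the 27. With the highest bin, Cx3cr1 was called lower (-1.31, edgeR adjusted p = 0.0294) and Cxcl9 was not called (-0.65, 0.174). Lyz2, H2-Ab1 and H2-Eb1 were called lower with all bins, with length and GC offsets, with 3′ end bins and with the highest bin. Their exons span only 1266, 1637 and 1184 bases, so 1000 bases at the 3′ end take in most of each gene. For them the 3′ end bins are no separate test, and the highest bin is part of the same counts. Mrc1, by contrast, was called near its 3′ end alone or with its highest bin (-0.88 ± 0.17, edgeR adjusted p = 0.0079). That bin had 572 counts and the only other 3′ end bin of Mrc1 had 4, so both fits rest on nearly the same counts. With the 3′ to 5′ ratio of each heart as a covariate, edgeR called none of the 38 members (2 higher and 0 lower at an unadjusted p under 0.05) and 4 genes of the table, with 586 at an unadjusted p under 0.05. Because the ratio separates the groups, this fit had little power and cannot tell coverage from genotype. Its SE was 0.47 for H2-Eb1 and 0.27 for Lyz2, against 0.17 and 0.10 with the main settings.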

How the data were processed

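The deposited file holds raw counts per exon bin for 6 heart libraries, in 425461 bins, from column-purified RNA and NEBNext Ultra II libraries, per the labels' protocols. GRCm38.p6, STAR, featureCounts, Subread 1.5.2 and DESeq2 are named in the submitters' processing notes, with their role, order and settings not given in the sources used here. Reads over several bins count in each of them, so a gene's summed count exceeds its number of reads. Every column of sample values was used. The series states n = 3 hearts per group, and groups came from the genotype label.

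Bins were summed per gene identifier and named from GENCODE annotation of GRCm38. Of 48005 identifiers, 1194 join overlapping genes and took the name of their single protein-coding gene, where they have 1. Itgam, Ackr1, Tnni3, Clec9a, Klrb1c, Gp1bb and Egfl7 could not be named this way and were left out of the list sums and calls. Genes were filtered with filterByExpr, TMM-scaled and tested in R 4.3.3 with edgeR 4.0.16 (robust glmQLFit, then glmQLFTest), adjusted by Benjamini-Hochberg over 13066 genes at a threshold of 0.05. SE is the size of the log2 difference over the square root of F. CPM uses TMM-scaled library sizes. Bins were placed in the 3 stretches of a gene by their middle. The fit was tested on simulated data before use.

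The members and gene lists were chosen with earlier results of these data known. Full values are given for called members, up to 3 members of each class by smallest p and Ptprc, Lyz2, C1qa, Cd74, Ccr2, Cxcl12, Nfkbia and Vcam1, and for up to 3 genes of each further list; some classes are described further. Alternatives were other scalings, DESeq2 1.42.0, limma-voom (limma 3.58.1), other count filters, 3′ end bins (bin middle within 1000 exonic bases of the 3′ end), the highest bin, length and GC offsets, the 3′ to 5′ ratio as covariate, no mitochondrial genes, and each heart left out. Without molecular identifiers, PCR copies of a molecule are counted apart, so the spread between hearts, not counting error, sets the precision.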

Additional observations from a re-analysis of the deposited data

How the results depend on the processing

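The count of genes called over the whole table was 1415, and it was 277 with 3′ end bins, 612 with the highest bin of each gene, 4 with the coverage ratio of each heart (3′ to 5′) as covariate, and 164 to 2461 with 1 heart left out (edgeR, fewest without knock-in replicate 2, most without wild-type replicate 3). Members called lower numbered 7 of 38, and 4 of 27 with 3′ end bins, 0 with the covariate and 1 to 9 with 1 heart left out. In all other fits they numbered 5 to 9, and no fit called a member higher. Lyz2 was called in 16 of 17 alternatives, H2-Ab1 and H2-Eb1 in 15 of 17, Cx3cr1 in 12 of 16, C1qc in 10 of 17, Cd74 in 9 of 17 and Cxcl9 in 9 of 16. Of the 38 members, 24 had a log2 difference of opposite sign in at least 1 alternative, and 17 in at least 1 other than the covariate, and the cause was not tested. The called members other than C1qc were below 0 in all alternatives run. With the highest bin, Mrc1 was at -0.88, Csf1r at -0.47, F13a1 at -0.33, Ccl9 at -0.32 and Adgre1 at -0.19, and with 3′ end bins Mrc1 was at -0.79. Without knock-in replicate 2, Ccl2 was at -0.16 and Il1b at 0.47. Other sign changes in members described fully were these. With the covariate, Cd68 was at 1.36, C1qa at 0.13, C1qb at 0.15, C1qc at 0.081, Tyrobp at 0.19, Laptm5 at 0.20, Ctss at 0.17, Ccr2 at -0.36, Ccl6 at 0.15, Nfkbia at 1.01 and Icam1 at 0.75. SEs in that fit were wide, at 0.59 for Cd68 and 0.51 for Nfkbia, against 0.28 and 0.23 with the main settings. With length and GC offsets, C1qa was at 0.19, C1qb at 0.038 and Laptm5 at 0.061. Cd163 was at -0.32 with 3′ end bins and at -0.52 with the highest bin, where Laptm5 was at 0.012. With 1 heart left out, Ptprc ranged from -0.24 to 0.021 (above 0 without wild-type replicate 2), Laptm5 from -0.13 to 0.012 (above 0 without knock-in replicate 1 and without wild-type replicate 2) and Ccr2 from -0.32 to 0.44 (below 0 without knock-in replicate 3 or wild-type replicate 2). Of the genes that changed sign, C1qc alone was called with the main settings. Genes with under 100 counts over all hearts, such as Plac8, Il1b and Ciita, had SEs of 0.41 to 0.80 on the log2 scale. Even changes well beyond that size could have been missed in them. No paired analysis was possible because the labels give the hearts no shared numbers.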
